A study of Mus musculus with 2 samples.

Results

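The genes described here restrain cell division or respond to stress. They are 2 CIP/KIP inhibitors of cyclin-dependent kinases (Cdkn1a and Cdkn1b), 4 INK4 inhibitors (Cdkn2a, Cdkn2b, Cdkn2c and Cdkn2d) and the 3 Gadd45 genes (Gadd45a, Gadd45b and Gadd45g). They were chosen by symbol, once earlier results on these arrays were known, as every probe set that the platform annotation assigns to exactly 1 of these 9 genes. This gave 13 of the 45037 probe sets on each array. On these arrays several short probes against a transcript form a probe set and are condensed to 1 signal. Since the genes were chosen in this way, their values are a description and none was tested.

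The study set CD103+ Th1 cells against Th1 cells, with 1 Affymetrix array per condition. Both were cultures of wild type CD4 T cells from spleens of C57BL/6 mice, enriched magnetically to a purity above 98%, stimulated through the T cell receptor and CD28 for 2 days, kept in culture for 3 more days and harvested on day 5. The medium of the CD103+ Th1 culture contained 3 cytokines, TGF-β (3 ng/ml), IL-4 (3 ng/ml) and IFN-γ (10 ng/ml). That of the Th1 culture contained IL-12 (1 ng/ml) and a blocking antibody to IL-4 (1 µg/ml). CD103, also called integrin αE, is a surface adhesion receptor chain. With 1 array in each of the 2 groups there is no spread between cultures, no test and no p-value, and every value is that of a single array. Each culture is a population, so that fewer cells of a type and less RNA per cell cannot be told apart.

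Cyclin-dependent kinases drive cells from G1 into DNA replication. INK4 proteins bind CDK4 and CDK6 and keep cyclin D away from them, while CIP/KIP proteins bind complexes of cyclins with CDK2 and also assemble with cyclin D and CDK4. GADD45 proteins are small stress sensors that bind PCNA and p21 and activate the kinase MAP3K4, upstream of p38. In T helper cells, GADD45β and GADD45γ are known to promote IFN-γ production through p38, and p27 is known to be abundant in resting T cells and to be lost when they divide.

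The 9 genes did not differ in 1 direction. Cdkn1a, Cdkn2b and Gadd45g were at least 2-fold lower in CD103+ Th1, and Cdkn1b and Gadd45b were at least 2-fold higher on their brightest probe set. Cdkn2c, Cdkn2d and Gadd45a differed by less than 2-fold, and Cdkn2a was not above background on either array. Signals were judged against a floor of 78.5, the median of all signals on the 2 arrays. Lower signals were raised to the floor. Where both signals were lower no ratio was formed, and where 1 was lower the fold is a bound and is given as "at least" that fold. Of the 13 probe sets, 11 were above the floor on at least 1 array. Of these 11, 3 were higher in CD103+ Th1 by 2-fold or more, as were 5.02% of all 20208 measured named probe sets, and 4 were lower by as much, as were 4.19%. The median log2 ratio of CD103+ Th1 over Th1 was 0.10 over the 11 probe sets and -0.01 over all measured ones. No fold threshold entered the choice of genes, but earlier ratios did, so these shares are given as background only.

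**Figure D1:**
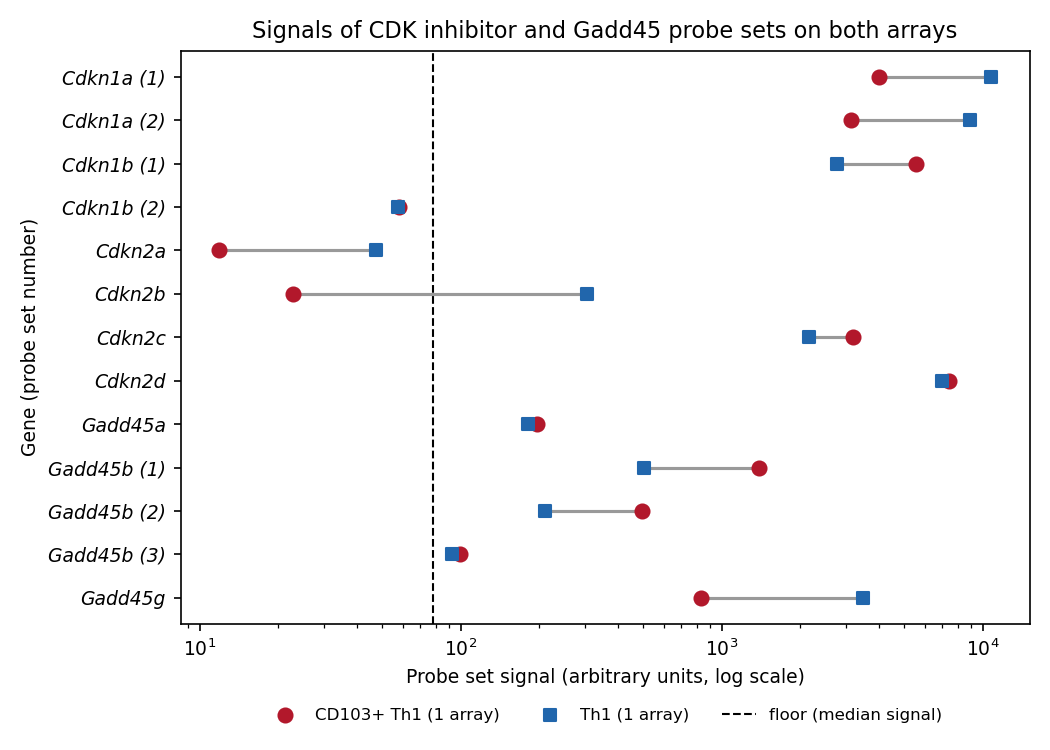
Signal of each of the 13 probe sets (horizontal axis, arbitrary units, log scale) in CD103+ Th1 (red circles) and Th1 (blue squares), 1 array each, with the floor of 78.5 as a dashed line. Probe sets of 1 gene are numbered from the brightest. Cdkn1a, Cdkn2b and Gadd45g are brighter in Th1, Cdkn1b (1) and Gadd45b (1) and (2) in CD103+ Th1, and Cdkn2a lies left of the floor on both arrays.

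Cdkn1a encodes p21, the CIP/KIP inhibitor that p53 induces after DNA damage and that TGF-β induces in many cell types. Its brightest probe set had a signal of 3999 on the CD103+ Th1 array against 10756 on the Th1 array, 2.69-fold lower in CD103+ Th1 (log2 ratio -1.43). The other had 3124 and 8942, 2.86-fold lower (log2 ratio -1.52). Both were far above the floor on both arrays, the lowest of the 4 signals at 39.8 times the floor. The log2 ratios lay 0.09 apart, while the median gap was 0.26 over the 2968 genes with exactly 2 measured probe sets, and 23.4% of these genes had a gap of at most 0.1. Of the 20208 measured named probe sets, 1.54% had a lower ratio than the brighter Cdkn1a probe set. Of 5238 genes with 2 or more measured probe sets, 90 (1.72%) had all of them at least 2-fold lower.

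Cdkn1b encodes p27, the other CIP/KIP inhibitor measured here. It differed in the opposite direction. Its brighter probe set had a signal of 5558 on the CD103+ Th1 array against 2752 on the Th1 array, 2.02-fold higher (log2 ratio 1.01), just past 2-fold, and 4.81% of measured named probe sets had a higher ratio. The other Cdkn1b probe set was under the floor on both arrays, with 57.9 and 57.4, so the difference rests on 1 probe set. The log2 ratio of Cdkn1b exceeded that of Cdkn1a by 2.44, so the balance of p27 to p21 transcript signals was shifted 5.43-fold between the arrays. Cdkn1c, the third CIP/KIP gene, which is imprinted and encodes p57, was under the floor on both arrays with signals of 23.7 and 42.9.

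The upstream bases of both CIP/KIP genes are shown because these genes of 1 family differed in opposite directions. Each run is the 250 bases before an annotated transcription start (RefSeq, GRCm38.p6), 5′ to 3′ on the gene's strand. Capitals mark matches on either strand to 4 motifs. These are the SMAD box CAGAC, the SP1 box GGGCGG, the STAT site TTCNNNGAA and the p53 decamer consensus, of which the last was added after the sequences had been seen. The SMAD palindrome GTCTAGAC was also searched. Cdkn1a has 2 annotated starts, and the probe sets do not say which was used.
Cdkn1a start 1, chr17:29090729-29090978, + strand: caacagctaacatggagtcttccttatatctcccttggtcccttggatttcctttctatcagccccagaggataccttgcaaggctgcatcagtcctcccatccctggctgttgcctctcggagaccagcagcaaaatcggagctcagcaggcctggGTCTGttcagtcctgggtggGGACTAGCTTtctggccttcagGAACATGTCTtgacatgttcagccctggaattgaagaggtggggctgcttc
Cdkn1a start 2, chr17:29093519-29093768, + strand: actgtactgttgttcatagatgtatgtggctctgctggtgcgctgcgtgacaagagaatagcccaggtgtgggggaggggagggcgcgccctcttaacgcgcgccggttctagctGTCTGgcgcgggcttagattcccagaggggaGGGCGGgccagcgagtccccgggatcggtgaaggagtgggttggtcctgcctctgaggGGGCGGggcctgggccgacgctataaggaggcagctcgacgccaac
Cdkn1b, chr6:134920151-134920400, + strand: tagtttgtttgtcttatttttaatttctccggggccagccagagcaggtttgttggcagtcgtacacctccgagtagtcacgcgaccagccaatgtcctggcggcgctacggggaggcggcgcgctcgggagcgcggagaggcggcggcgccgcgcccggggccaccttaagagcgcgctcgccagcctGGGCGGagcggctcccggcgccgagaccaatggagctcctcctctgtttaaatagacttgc

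The window of the first Cdkn1a start held 2 p53 decamer matches, GGACTAGCTT at 73 to 64 bases and GAACATGTCT at 51 to 42 bases before the start, and 1 SMAD box. Such a p53 match occurred in 7.13% of the 32851 windows of the RefSeq table. The window of the second Cdkn1a start held 2 SP1 boxes and 1 SMAD box, and that of Cdkn1b 1 SP1 box and no SMAD box. SP1 boxes were found in 32.7% of all windows and SMAD boxes in 42.2%, so neither is rare. The STAT site, in 7.02% of all windows, and the SMAD palindrome, in 0.167%, were found in none of the 12 windows of the 9 genes. A match is a run of letters, and no binding was measured here.

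Among the INK4 genes, Cdkn2b stood apart. It encodes p15, which TGF-β is known to induce in epithelial cells, where it holds back CDK4 and CDK6. Its 1 probe set had a signal of 22.8 on the CD103+ Th1 array, under the floor, and 305 on the Th1 array, 3.89 times the floor. The signal was therefore at least 3.89-fold lower in CD103+ Th1, the culture that contained TGF-β (log2 ratio -1.96, a bound). The size of this difference depends on how low signals are treated, and its log2 ratio was -3.74 with the floor at the 25th percentile of signals and -2.89 with a pseudocount of 21.2 instead. With the floor at the 75th percentile, 472, the gene had no ratio, since both signals lay under it.

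Cdkn2a is the neighbour of Cdkn2b on chromosome 4, with 0 other protein-coding genes between them in the gene table. It encodes p16 and, from another first exon and reading frame, the p53 activator p19ARF. Its 1 probe set had signals of 11.9 on the CD103+ Th1 array against 47.1 on the Th1 array, both under the floor, and is of a type that can detect several transcripts of 1 gene, so the products cannot be told apart. No ratio was taken. With the floor at the 25th percentile, 21.2, the Th1 signal was above it and the one in CD103+ Th1 was not, which gave a bound of at least 2.22-fold lower.

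Cdkn2c and Cdkn2d were measured well above the floor on both arrays. Cdkn2c, which encodes p18, an inhibitor that limits proliferation of T cells, had a signal of 3176 on the CD103+ Th1 array against 2154 on the Th1 array, 1.47-fold higher (log2 ratio 0.56). Cdkn2d, which encodes p19INK4d, had 7435 and 6962, 1.07-fold higher (log2 ratio 0.09). Of the measured named probe sets, 14.0% had a higher ratio than Cdkn2c and 41.4% a higher ratio than Cdkn2d, which places Cdkn2d near the middle. Past 2-fold, 1 of the 3 measured INK4 genes was lower and 0 were higher, beside 4.87% and 5.04% of all measured genes. The log2 ratio of Cdkn2c exceeded that of Cdkn2b by at least 2.52.

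The upstream bases of Cdkn2b are shown as those of the INK4 gene that differed past 2-fold. They held 1 SMAD box, at 129 to 125 bases before the start, and no match to the other motifs.
Cdkn2b, chr4:89311033-89311282, - strand: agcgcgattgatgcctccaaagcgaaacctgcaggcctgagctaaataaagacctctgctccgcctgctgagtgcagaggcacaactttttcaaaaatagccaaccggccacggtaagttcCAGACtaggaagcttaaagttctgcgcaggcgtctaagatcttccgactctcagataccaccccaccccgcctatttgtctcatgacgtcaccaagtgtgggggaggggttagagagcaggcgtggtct

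Gadd45g and Gadd45b differed in opposite directions, and their log2 ratios were 3.53 apart, or 11.6-fold. Gadd45g had a signal of 830 on the CD103+ Th1 array against 3470 on the Th1 array, 4.18-fold lower (log2 ratio -2.06) on its 1 probe set. Only 107 of the 20208 measured named probe sets had a lower ratio. Gadd45g was past 4-fold, as Cdkn2b may be, since its 3.89-fold is a bound. Of all measured named probe sets 0.594% were lower past 4-fold and 0.826% higher, and of all measured genes 0.768% were lower by as much. Both signals were above 10 times the floor.

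Gadd45b differed in the opposite direction on 2 of its 3 probe sets. The brightest had a signal of 1392 on the CD103+ Th1 array against 503 on the Th1 array, 2.77-fold higher (log2 ratio 1.47), and the next had 492 and 211, 2.34-fold higher (log2 ratio 1.22). The third had 98.8 and 92.1, 1.07-fold higher (log2 ratio 0.10), with both signals within 1.26 times the floor. The third ratio is too near 0 to give a direction. The range of 1.37 was wider than the median range of 0.45 over the 1342 genes with exactly 3 measured probe sets. Of the 5238 genes with 2 or more measured probe sets, 176 (3.36%) had at least 2 of them at least 2-fold higher, as Gadd45b had, and 1.97% had all of them so, as Gadd45b did not. The second probe set is of a type that can also detect transcripts of other genes. The mean of the 3 gave a log2 ratio of 0.93, or 1.91-fold. With a floor of 472 the second had a log2 ratio of 0.06.

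Gadd45a, the p53-induced gene of the family, was near its Th1 level. Its 1 probe set had signals of 195 on the CD103+ Th1 array against 181 on the Th1 array, 1.08-fold higher (log2 ratio 0.11), and 40.2% of measured named probe sets had a higher ratio. The signals were close to background, at 2.49 and 2.31 times the floor. Past 2-fold, 2 of the 5 Gadd45 probe sets were higher and 1 was lower, and the other 2 differed by less. Of all measured named probe sets, 5.02% were higher by as much and 4.19% lower.

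The upstream bases of the Gadd45 pair that differed past 2-fold in opposite directions follow. That of Gadd45b held 1 SP1 box, at 158 to 153 bases before the start, and that of Gadd45g 1 SMAD box, at 208 to 204 bases. The SMAD box occurs in 42.2% of all windows. Within the group, windows of Cdkn1a, Cdkn2b, Cdkn2c, Cdkn2d and Gadd45a held it too. Whether it bears on any of the differences was not tested.
Gadd45b, chr10:80929841-80930090, + strand: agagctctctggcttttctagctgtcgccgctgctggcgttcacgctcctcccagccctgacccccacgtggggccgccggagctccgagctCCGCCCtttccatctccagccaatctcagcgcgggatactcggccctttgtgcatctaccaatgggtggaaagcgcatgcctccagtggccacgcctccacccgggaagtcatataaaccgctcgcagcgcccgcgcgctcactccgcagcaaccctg
Gadd45g, chr13:51846425-51846674, + strand: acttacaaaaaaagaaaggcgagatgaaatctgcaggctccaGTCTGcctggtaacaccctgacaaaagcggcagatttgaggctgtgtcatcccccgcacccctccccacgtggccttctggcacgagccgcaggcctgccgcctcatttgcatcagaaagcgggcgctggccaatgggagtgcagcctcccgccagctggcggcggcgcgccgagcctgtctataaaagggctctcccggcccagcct

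**Figure D2:**
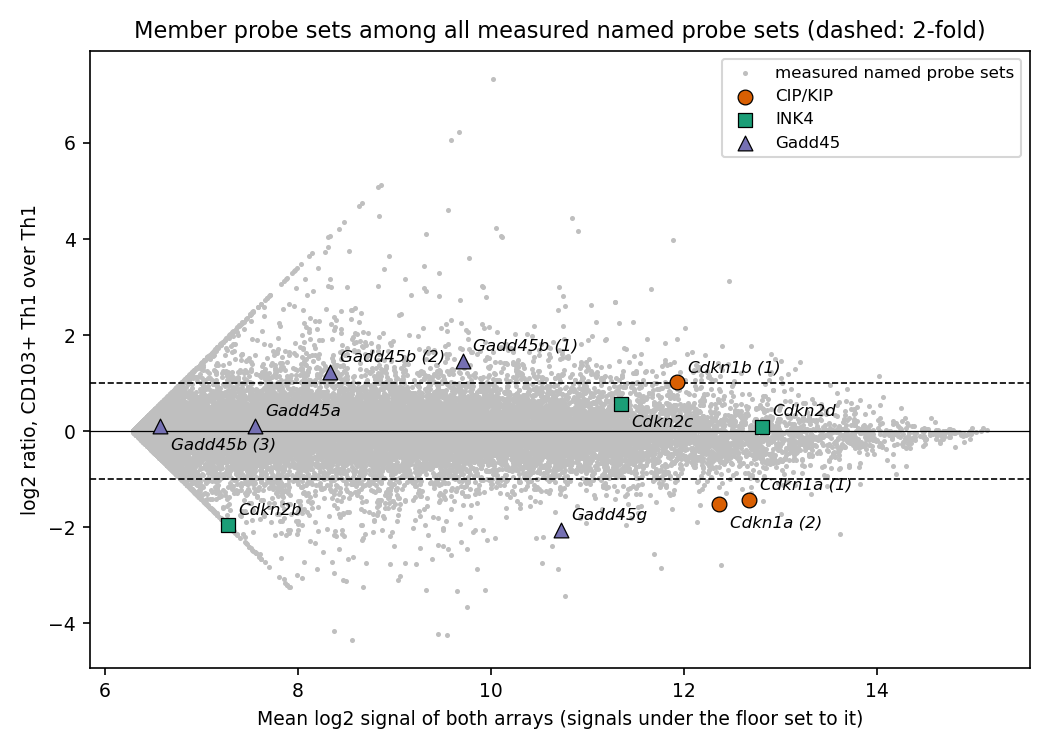
Log2 ratio of CD103+ Th1 over Th1 (vertical axis) against the mean log2 signal of both arrays (horizontal axis) for 20208 measured named probe sets (grey) and the 11 measured probe sets of the CDK inhibitors and Gadd45 genes (coloured by family), with dashed lines at 2-fold. The cloud narrows as the signal grows, and Cdkn1a, at log2 ratios of -1.43 and -1.52, and Gadd45g, at -2.06, lie at its lower edge at high signal.

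The grey cloud of ratios against signal is narrower among bright probe sets, so the background was also counted there. Of 9274 named probe sets at or above the 75th percentile of signals on both arrays, 3.21% were higher past 2-fold and 2.19% lower. The CDK inhibitors and Gadd45 genes had 7 such probe sets, both of Cdkn1a and the brightest of Cdkn1b, Cdkn2c, Cdkn2d, Gadd45b and Gadd45g. Past 2-fold, 2 of these 7 were higher and 3 were lower.

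The targets of the inhibitors were under 2-fold on their brightest probe sets, as were most measured genes. The following gene lists were drawn up by function, with earlier results of these data known, and use the brightest measured probe set of each gene. Of all 11194 measured genes, 5.04% were higher past 2-fold and 4.87% lower, and their median log2 ratio was -0.03. Of 11 measured cyclin and CDK genes, 0 were past 2-fold in either direction and the median was -0.11. Cdk4, a kinase bound by the INK4 proteins, had signals of 3168 on the CD103+ Th1 array against 4766 on the Th1 array (log2 ratio -0.59), and its 3 probe sets lay between -0.88 and -0.57. Ccnd1, a D cyclin gene, was 1.49-fold lower, with signals of 96.7 and 144 close to the floor. Ccnd2, also a D cyclin gene, was 1.04-fold higher (11974 against 11503), with 7 probe sets from -0.12 to 0.65. Cdk6, which INK4 proteins also bind, was 1.48-fold lower on its brightest probe set (5833 against 8622). Its 3 probe sets ranged from -1.13 to -0.56, so the lowest was past 2-fold. The D cyclin gene Ccnd3 was 1.51-fold lower by its brightest probe set, while all 3 spanned -0.60 to 1.96 and their mean was 0.36, so its direction depends on the probe set. Cdk2, for a kinase that p21 and p27 inhibit, was 1.06-fold lower.

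Genes downstream of the CDKs and markers of dividing cells were also mostly under 2-fold, as were most measured genes. Of 13 measured genes for RB proteins, E2F factors and their partners, 1 was at least 2-fold lower, the repressive factor gene E2f5 (251 against 650, 2.59-fold), and 0 were at least 2-fold higher. Its 3 probe sets ranged from -1.64 to -1.20, and with a floor of 472 its log2 ratio was -0.46 and no gene of the list was past 2-fold on the lower side. E2f2, an activating factor, was 1.53-fold higher and Tfdp2, a dimer partner, 1.58-fold higher, both under 2-fold. Of 15 proliferation genes, 0 were past 2-fold and the median was -0.17. The proliferation marker Mki67 was 1.10-fold lower, with signals of 11210 and 12329. Rrm1, for a ribonucleotide reductase subunit, was 1.48-fold lower, the mitotic kinase gene Aurkb 1.45-fold lower and the replication helicase gene Mcm3 1.43-fold lower. These were under 2-fold on the brightest probe set, but the 5 Mcm3 probe sets ranged from -1.12 to -0.51.

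Genes that regulate CDKs and the inhibitors after translation were under 2-fold on their brightest probe sets. Of all measured genes 5.04% were higher past 2-fold and 4.87% lower, so 0 in a list this short is near those shares. Of 8 measured genes for enzymes that activate or inactivate CDKs, 0 were past 2-fold, and the phosphatase gene Cdc25b had the largest ratio, 1.63-fold higher. Cdc25a, for a related phosphatase, was 1.27-fold lower on its brightest probe set, and Pkmyt1, for a kinase that inactivates CDK1, 1.22-fold lower. Their probe sets differed in sign, from -0.35 to 0.09 for Cdc25a and from -0.29 to 0.82 for Pkmyt1. Of 11 measured genes of inhibitor turnover, 0 were past 2-fold. Skp2, the F-box protein that marks p27 for destruction, had signals of 523 and 522, and its 6 probe sets ranged from -0.44 to 0.07. Rnf123, a subunit of the KPC ligase that also degrades p27, was 1.79-fold higher, and Cks1b, the cofactor of SKP2, had a log2 ratio of -0.38. Cul1, the scaffold of the SKP2 ligase, was 1.28-fold lower. Protein levels were not measured here.

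Several p53 targets were lower along with Cdkn1a, and others were not. The list of p53 regulators and targets left out the 9 genes described above and had 19 measured genes. Of these, 5 were past 2-fold on the lower side and 1 on the higher side, and the median log2 ratio was -0.24. The kinase gene Plk2 was 4.36-fold lower in CD103+ Th1 (108 against 473), Zmat3, for an RNA-binding protein, 3.02-fold lower (726 against 2195) and Perp, for an apoptosis-associated membrane protein, 2.72-fold lower (253 against 688). The others past 2-fold, named after their values were seen, were Phlda3, for an inhibitor of AKT (2.48-fold lower), the cyclin G1 gene Ccng1 (2.09-fold lower, 6009 against 12535) and the antiproliferative gene Btg2 (2.05-fold higher, 2402 against 1173). Ccng1 was lower on all 3 probe sets, from -1.59 to -1.06. Mdm2, the ligase gene that p53 induces to limit itself, was 1.37-fold lower. With a floor of 472, 3 genes were at least 2-fold lower, and Plk2 and Perp had log2 ratios of -0.00 and -0.54.

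**Figure D3:**
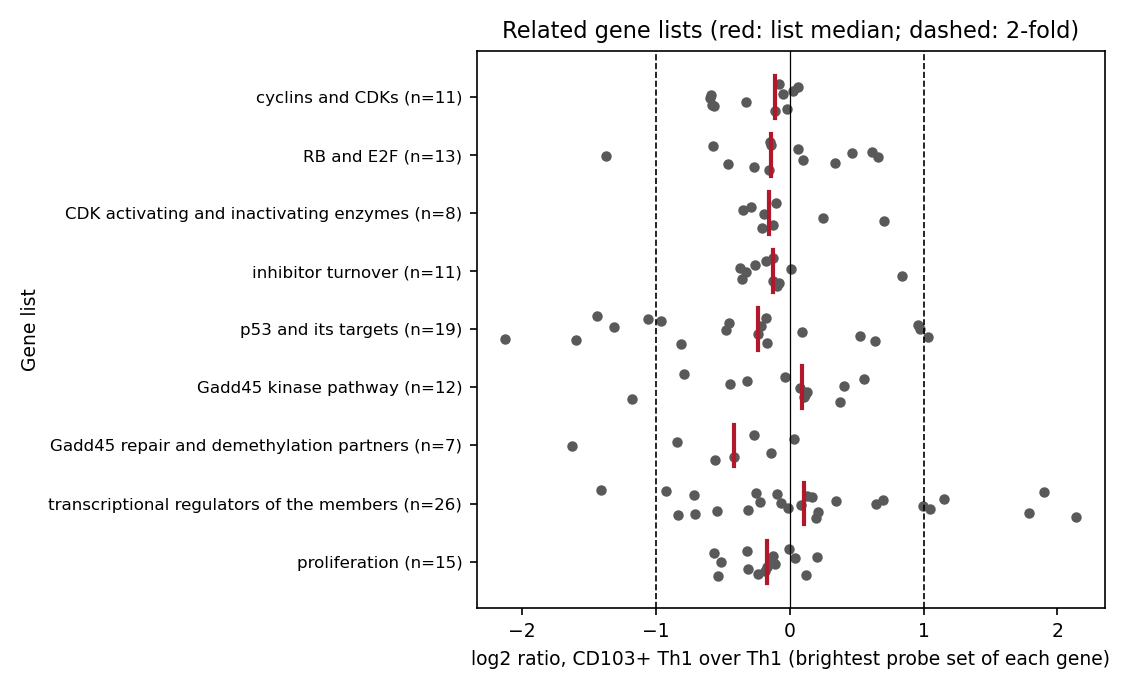
Log2 ratio of CD103+ Th1 over Th1 (horizontal axis) for each measured gene of 9 related lists (rows), on the brightest probe set, with list medians in red and dashed lines at 2-fold. Cyclins, CDKs, CDK enzymes, turnover and proliferation genes stay within 2-fold, while the p53 list reaches -2.13 and the list of regulators 2.14.

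Upstream regulators of the 9 genes differed in both directions. Past 2-fold, 5 of 26 measured regulators were higher and 1 was lower, beside 5.04% and 4.87% of all measured genes. The median of the 26 was 0.10. Irf1, an interferon-induced factor that can activate Cdkn1a, was 4.41-fold higher in CD103+ Th1 (8668 against 1966), opposite to Cdkn1a. Max, the dimer partner of MYC, was 3.74-fold higher (371 against 99.1) and Id1, which blocks E proteins that activate Cdkn1a, 3.46-fold higher (389 against 112), with Th1 signals close to the floor. The other genes past 2-fold, named after their values were seen, were Klf4 (2.23-fold higher, 180 against 80.9), Foxo1 (2.07-fold higher) and Smad3 (2.66-fold lower). The Th1 signal of Klf4 was close to the floor. Its other probe set had a log2 ratio of 0.76, and Klf4 was under 2-fold by the mean (0.96) or with a pseudocount (0.98). With a floor of 472, 2 of the regulators were at least 2-fold higher.

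FOXO, MYC and SMAD factors have known links to single genes of this group. FOXO factors activate Cdkn1b. Foxo1 had signals of 3306 on the CD103+ Th1 array against 1601 on the Th1 array, and its 3 probe sets ranged from 0.96 to 1.18. Foxo3 was 1.90-fold lower (1147 against 2178), with a second probe set at -0.27, so the FOXO genes differed in opposite directions. MYC represses Cdkn1a and Cdkn2b through the factor encoded by Zbtb17. Myc was 1.63-fold lower (2130 against 3479) and Zbtb17 1.06-fold higher. Smad3, which carries TGF-β signals to Cdkn1a and Cdkn2b, had 450 and 1200 on its brightest probe set, with the other at -0.13 and a mean of -0.77. Smad2 was 1.01-fold lower and Smad4 1.27-fold higher. Listed genes of the Polycomb proteins that silence the Cdkn2a and Cdkn2b locus were under 2-fold on their brightest probe sets, in both directions. Cbx7 was 1.62-fold higher, Bmi1 1.15-fold, Ezh2 1.12-fold and Rnf2 1.09-fold higher, while Eed was 1.46-fold lower and Suz12 1.07-fold lower. The 2 Bmi1 probe sets were at 0.20 and 0.60.

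The kinase pathway that GADD45 proteins activate had 1 gene past 2-fold, Map2k6. This is near the shares over all measured genes, 5.04% higher and 4.87% lower. Map3k4, the kinase that they bind, was 1.25-fold lower on its brightest probe set, and its 4 probe sets ranged from -0.32 to 0.39. Map2k6, a kinase that activates p38, was 2.27-fold lower (124 against 282), the only 1 of 12 measured genes past 2-fold, and it had no ratio with a floor of 472. Mapk14, for p38α, was 1.32-fold higher and Mapk13, for p38δ, 1.73-fold lower (136 against 236). Mapk9, for the kinase JNK2, was 1.47-fold higher, with all 3 probe sets from 0.54 to 0.56. The median of the list was 0.09.

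Among 7 measured partners of GADD45 in DNA repair and demethylation, 1 was at least 2-fold lower, 0 were at least 2-fold higher and the median was -0.42. Of all measured genes, 4.87% were lower past 2-fold and 5.04% higher. Tet1, for an enzyme that oxidises methylcytosine, was 3.09-fold lower (149 against 460), with 3 probe sets from -2.49 to -0.33, and had no ratio with a floor of 472. Ercc5, for a repair endonuclease that binds GADD45α, was 1.80-fold lower (568 against 1021) and Apex1, for a base excision repair endonuclease, 1.48-fold lower. Pcna, for the replication clamp that GADD45 and p21 both bind, was 1.21-fold lower (18641 against 22497).

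The 11 measured ratios kept their direction under the scalings, floors and probe set choices tried, as the plot of ratios by alternative shows. The log2 ratio of the brightest Cdkn1a probe set stayed between -1.43 and -1.38, that of Gadd45g between -2.09 and -2.04, and that of the brightest Gadd45b probe set between 1.42 and 1.48. The Cdkn1b ratio stayed between 1.01 and 1.06, so its place just past 2-fold did not change. These ranges describe the choice of processing on the same 2 arrays and say nothing about a second culture.

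**Figure D4:**
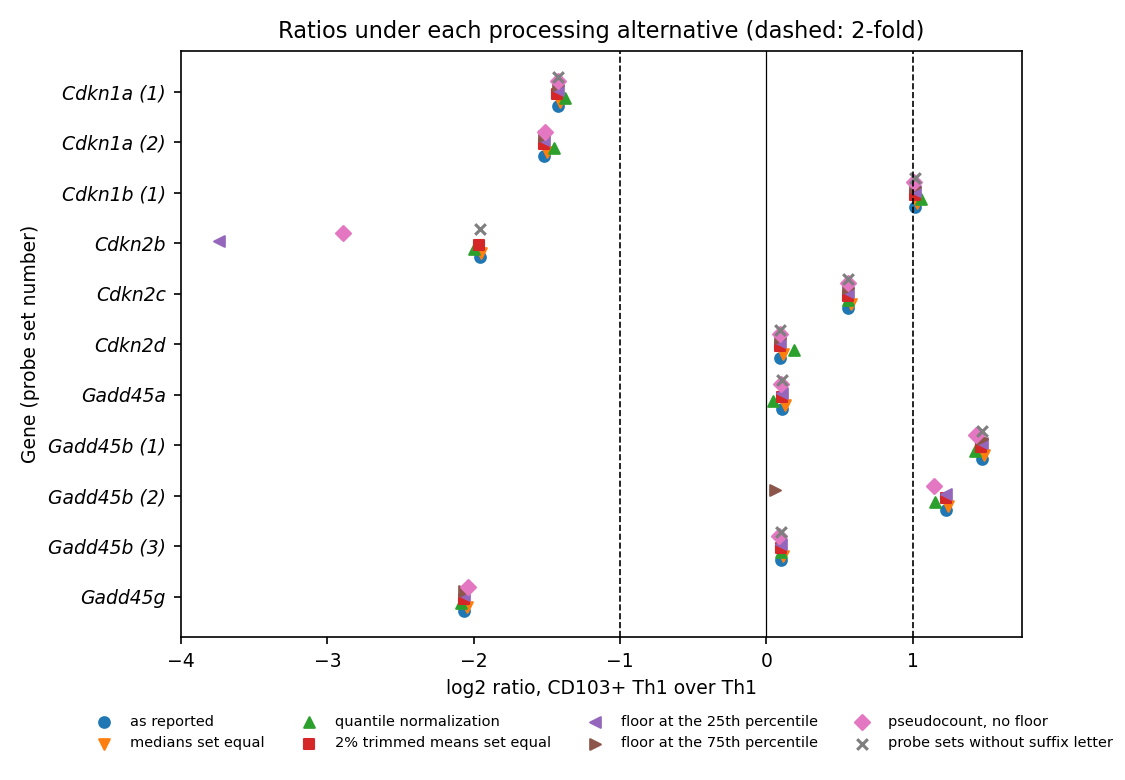
Log2 ratio of CD103+ Th1 over Th1 (horizontal axis) for the 11 measured probe sets as reported and under 7 alternatives (symbols), with dashed lines at 2-fold. Points are missing where a probe set has no ratio under an alternative. Cdkn2b moves from -1.96 to -3.74 with the floor at the 25th percentile and the second Gadd45b probe set from 1.22 to 0.06 with the floor at the 75th, while the others move little.

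The arrays were also checked against their labels as T cells. Medians of all signals were 78.0 in CD103+ Th1 and 78.8 in Th1, and the means after trimming 2% at each end were 498 on both. All 9 T cell markers with a named probe set were above the floor on both arrays, with log2 ratios from -0.20 to 0.63 and summed signals of 68829 and 59045. Of 4 CD8 T and NK cell markers 3 were measured, with sums of 6967 and 3351, and the NK marker Ncr1 was under the floor. Cd8a was 4.41-fold higher in CD103+ Th1 (2054 against 466), with 5 probe sets from 0.24 to 2.16. Cd8b1 was 2.28-fold higher (1593 against 697) and Klrk1 1.52-fold higher. Of 6 B cell markers 2 were measured (sums of 457 and 314), with Ms4a1, Cd79a, Pax5 and Blnk under the floor on both arrays. Cd79b was at least 3.11-fold higher in CD103+ Th1 (244 against 75.8, the latter under the floor), and Cd22 was 1.21-fold higher. Of 7 myeloid and dendritic cell markers 3 were measured (354 and 687), with Itgam, Lyz2, Cd14 and Itgax under the floor. Cd68 was 2.25-fold lower in CD103+ Th1 (104 against 233), Csf1r 1.59-fold lower and Adgre1 at least 1.01-fold lower. Of 2 erythroid markers 1 was measured (133 and 154), and of 4 stromal markers 1 (138 and 180). The part of CD8 and other cells in the differences above was not tested.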

How the data were processed

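Each of 2 cultures was measured on 1 Affymetrix array. The values used are the authors' deposited signal intensity of every probe set, linear and in arbitrary units. GCOS is named per the submitters' processing notes. Its version, the scaling target and any filter are not given in the sources used here. Of 45037 probe sets, 34945 had 1 gene symbol in the platform annotation, 932 several and 9160 none, and 34741 of those named matched the GRCm38.p6 gene table by gene identifier and took its symbol.

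Signals were floored at 78.5, and ratios are CD103+ Th1 over Th1. In a list, a gene stands by its brightest measured probe set. A single array per condition allows no test and limits the precision. Levels of different genes were not compared, and with 1 ratio per gene none was named as most alike. Named were the 9 genes, the 3 genes of every list farthest from a ratio of 1, and others for their links to the 9 or, where stated, after their values were seen. Genes, lists and rules were chosen with earlier results of these data known. All 9 genes had upstream windows in the RefSeq table. No control probe sets were in the table, so RNA quality was not assessed. Alternatives varied scaling, floor, threshold and probe set choice. The steps were tested on simulated data with Python 3.11.15, numpy 2.4.6, pandas 2.3.3 and matplotlib 3.10.9.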

Additional observations from a re-analysis of the deposited data

How the results depend on the processing

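Among the CDK inhibitors and Gadd45 genes, 0 of the 71 ratios recomputed under 7 alternatives reversed. Of these, 68 moved by less than 0.37 on the log2 scale, the median range between probe sets of 1 gene. The others were Cdkn2b with a lower floor or a pseudocount and the second Gadd45b probe set with a higher floor, as given above. Many of the 71 could hardly have moved. A changed floor or probe set choice leaves a ratio as it was while both signals stay above the floor. Trimmed means were already 498 on both arrays, so setting them or the medians equal moved ratios little. Past 2-fold, the counts of 3 probe sets higher and 4 lower became 2 and 2 with only probe sets whose names carry no suffix letter, which leaves out Gadd45g, the second Cdkn1a and the second Gadd45b probe set. At 4-fold they were 0 and 1. With the floor at the 25th percentile or a pseudocount they were 3 and 5, since Cdkn2a then counted as lower. Over all named probe sets, 1015 higher and 846 lower became 1902 and 2068 with the floor at the 25th percentile, 396 and 273 at the 75th, 1638 and 1717 with a pseudocount, 2670 and 2491 at 1.5-fold and 167 and 120 at 4-fold. The share past 2-fold in either direction, 9.21%, was 6.10% with the floor at the 75th percentile. At 1.5-fold 25.5% and at 4-fold 1.42% were past the threshold. The alternatives for the related lists were added after the data were seen. No paired analysis was possible because each group has 1 array, and for the same reason no array could be left out. Signals near the floor, as for Gadd45a and the third Gadd45b probe set, limit what a ratio near 1 can show.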

Other observations

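The windows upstream of the other genes of the group differed in composition. The first Cdkn2a start had a G and C content of 78.4% and 2 SP1 boxes, and the second, 60.0% and none. Of the 2 Cdkn2c starts, the first had 77.2% and 3 SP1 boxes, and the second 42.8%, no SP1 box and 1 SMAD box. The median over all 32851 windows was 52.4%. The p53 decamer consensus matched once in the window of Gadd45a, as GGGCTAGCCC at 40 to 31 bases before the start, and once in that of Cdkn2d, and these genes had log2 ratios of 0.11 and 0.09, too near 0 to give a direction.

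Stress-linked genes with known ties to p53 and FOXO factors were on both sides. Sesn1, for a sestrin that restrains mTORC1, was 1.94-fold higher in CD103+ Th1 (2298 against 1182), with 4 probe sets from 0.75 to 1.35. Trp53inp1, for a p53-induced nuclear protein, was 1.96-fold higher (16387 against 8357). Pmaip1, for the death protein NOXA, was 1.95-fold lower (622 against 1209). All 3 were under 2-fold and were named after their values were seen.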
